A study of Mus musculus with 12 samples.

Results

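The comparison described here set neural progenitor cells that carried the nestin-Cre transgene on an otherwise wild-type background (Nes-Cre+/- Kmt2a+/+) against cells with neither the transgene nor an edited Kmt2a allele (Kmt2a+/+). Its members were chosen by the genotype label, which gave 3 libraries per genotype, 6 of the 12 libraries of the series, and the differences were followed across 17076 tested genes of the 18911 in the count table. The cells (mNPCs) were grown from the hippocampus of P0 mouse pups in a medium with fibroblast and epidermal growth factors, and their poly(A) RNA was sequenced. The study used the LSL allele, a stop cassette flanked by loxP sites in the first intron of Kmt2a made in C57BL/6J zygotes, as a switch that Cre removes in nervous tissue. Kmt2a+/LSL and Nes-Cre+/- Kmt2a+/LSL, with 3 libraries each, carry that cassette and serve below as a second background. In that background every nestin-Cre difference also holds the return of Kmt2a, so it is not one of the transgene alone. These libraries also enter the fit of all 12 libraries that sets the spread behind each p-value. In Nes-Cre+/- Kmt2a+/+ there is no cassette for Cre to remove, so the comparison asks what goes with the transgene itself. The genotype label names only the transgene for these libraries, and their titles give wild type for Kmt2a. The labels do not say whether the 3 libraries of a genotype came from separate pups, litters or cultures, so the p-values measure the spread between these libraries, which may be technical.

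Nestin is an intermediate filament protein of neural stem and progenitor cells, and nestin-Cre lines use its regulatory DNA to express Cre recombinase in the developing nervous system. Kmt2a encodes a methyltransferase that places methyl groups on lysine 4 of histone H3. Nestin-Cre mice are known for a mild shortage of pituitary growth hormone and a lower body weight, and Cre can cut genomic sites that resemble loxP, for which reason the growth hormone and IGF axis and the p53 response to DNA damage are among the gene lists below.

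The library totals of the 6 libraries lay between 18280008 and 28596919 estimated counts, and 3 counts corresponded to 0.105 to 0.164 CPM (counts scaled to the library total), a limit that covers counting error only. Kmt2a+/+ replicate 1 stood apart from the other libraries. It had the lowest total, counts in 15176 genes against 16779 to 17073 in the other 5, and 13.2% of its counts in its 10 most abundant genes against 6.19% to 7.18%. Its median correlation with the other libraries of its genotype, over log2 CPM, was 0.903, while the 3 Nes-Cre+/- Kmt2a+/+ libraries had 0.982 to 0.984. The main results are therefore given with and without that library. Transcripts of Y-linked genes were at 250 and 160 CPM in Kmt2a+/+ replicates 1 and 2 and at 204 in Nes-Cre+/- Kmt2a+/+ replicate 3. They were at 0.909, 0.965 and 1.66 in the other 3 libraries, so the genotypes also differed in how many libraries held Y-linked transcripts. Each genotype held libraries with and without them, so its 3 libraries did not all come from the same pup. Whether libraries alike in this came from separate pups is not known.

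Kmt2a was read first, to see whether any of the 6 libraries carried the stop cassette. It cannot tell Nes-Cre+/- Kmt2a+/+ from Kmt2a+/+, since neither has the cassette, and the presence of Cre was not checked. Kmt2a had 6899, 7196 and 6722 normalized counts (counts divided by the TMM-scaled library size) in Kmt2a+/+ and 6779, 7429 and 7168 in Nes-Cre+/- Kmt2a+/+. These ranges overlapped, and the log2 fold change of 0.04 (SE 0.12, n = 3 per genotype) had an adjusted p = 1 in edgeR's quasi-likelihood test with Benjamini-Hochberg adjustment. The Kmt2a+/LSL libraries held 3974, 3981 and 3993, well below every library of the comparison. The endogenous nestin gene, Nes, was high in all 6 libraries, with 14210, 7581 and 14980 in Kmt2a+/+ and 14760, 9459 and 8505 in Nes-Cre+/- Kmt2a+/+, and a log2 fold change of -0.17 (SE 0.33). These ranges overlapped as well.

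No gene passed an adjusted p under 0.05 between Nes-Cre+/- Kmt2a+/+ and Kmt2a+/+ in edgeR, 0 of 17076 genes and a background of 0%. An unadjusted p under 0.05 was reached by 239 genes (1.40%), of which 117 were higher (0.685%) and 122 lower (0.714%) in Nes-Cre+/- Kmt2a+/+, where uniform p-values would give 854. This balance depended on the processing, with 142 higher and 360 lower under a GC offset, 92 and 239 under a length offset, 734 and 354 in limma-voom, and 296 and 458 without Kmt2a+/+ replicate 2. DESeq2's Wald test called 3 genes, the same test rescaled to an empirical null 7, and limma-voom with quality weights none. Without Kmt2a+/+ replicate 1, edgeR again called 0 genes, of 16987, but 1035 genes (6.09%) had an unadjusted p under 0.05, 657 higher (3.87%) and 378 lower (2.23%), where 849 would be given by uniform p-values. DESeq2's Wald test then called 5, the empirical null 7 and limma-voom none. The biological coefficient of variation was 0.3676 with that library and 0.2315 without it. The count of genes at an unadjusted p under 0.05 moved with single libraries of either genotype, to 754 without Kmt2a+/+ replicate 2, 901 without Kmt2a+/+ replicate 3, 142 without Nes-Cre+/- Kmt2a+/+ replicate 2 and 150 without Nes-Cre+/- Kmt2a+/+ replicate 3.

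Nek7, a serine/threonine kinase of the NIMA family that acts in mitotic spindle assembly and in activation of the NLRP3 inflammasome, was the gene with the smallest p in both fits. It lies on chromosome 1 from 138482875 to 138620141 (GRCm38). Its normalized counts were 200.5, 193 and 180.1 in Kmt2a+/+ and 531, 672 and 554 in Nes-Cre+/- Kmt2a+/+. The lowest Cre-carrying library was far above the highest Kmt2a+/+ library, and Kmt2a+/+ replicate 1 lay beside the other 2 libraries of its genotype. The mean was 3.06 times that of Kmt2a+/+, a log2 difference of 1.61 (SE 0.20) with an adjusted p = 0.0812 in edgeR (range over the alternatives 1.49e-13 to 1). In a fit of only the 2 genotypes the log2 difference was 1.59 (SE 0.24) and the adjusted p = 1 in edgeR. Leaving out Kmt2a+/+ replicate 1 gave 1.64 (SE 0.20, adjusted p = 0.0601), and with any 1 library of the comparison left out the log2 difference stayed between 1.502 and 1.68. Without that replicate the adjusted p of Nek7 in edgeR passed the threshold with the robust fit (0.0424), with no filter (0.0461) and with at least 10 counts in every library (0.0467), within a range of 1.07e-10 to 0.519 over all alternatives. The two-sided exact permutation test of 3 against 3 libraries gave p = 0.1, the smallest it allows.

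The level of Nek7 was also above that of Kmt2a+/+ in cells that carry no Cre. Normalized counts of Nek7 were 414, 449 and 502 in Kmt2a+/LSL, and 918, 613 and 744 in Nes-Cre+/- Kmt2a+/LSL. In order of their means, the genotypes ran from Kmt2a+/+ (191 ± 10.3, SD, n = 3) over Kmt2a+/LSL (455) and Nes-Cre+/- Kmt2a+/+ (586 ± 75.8, SD, n = 3) to Nes-Cre+/- Kmt2a+/LSL (758), and only the ranges of the last pair overlapped. The nestin-Cre difference in Nek7 within the LSL background was 0.74 on the log2 scale (SE 0.19, adjusted p = 1 in edgeR). It comes from libraries that the first comparison does not contain, and Cre also restores Kmt2a there. The difference between the 2 nestin-Cre effects was 0.87 (SE 0.27, adjusted p = 1 in edgeR). Within 2 megabases on either side of Nek7, 14 other genes were tested, and 0 of them had an unadjusted p under 0.05 in edgeR with all libraries (2 without Kmt2a+/+ replicate 1, Atp6v1g3 and Zbtb41, named after their values were seen), beside 1.40% and 6.09% of all genes. Of these neighbours, 1 gene, Atp6v1g3, did not overlap between the genotypes, as did 4.35% of all genes. The log2 fold changes of the 14 ran from -1.12 to 1.21.

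**Figure D1:**
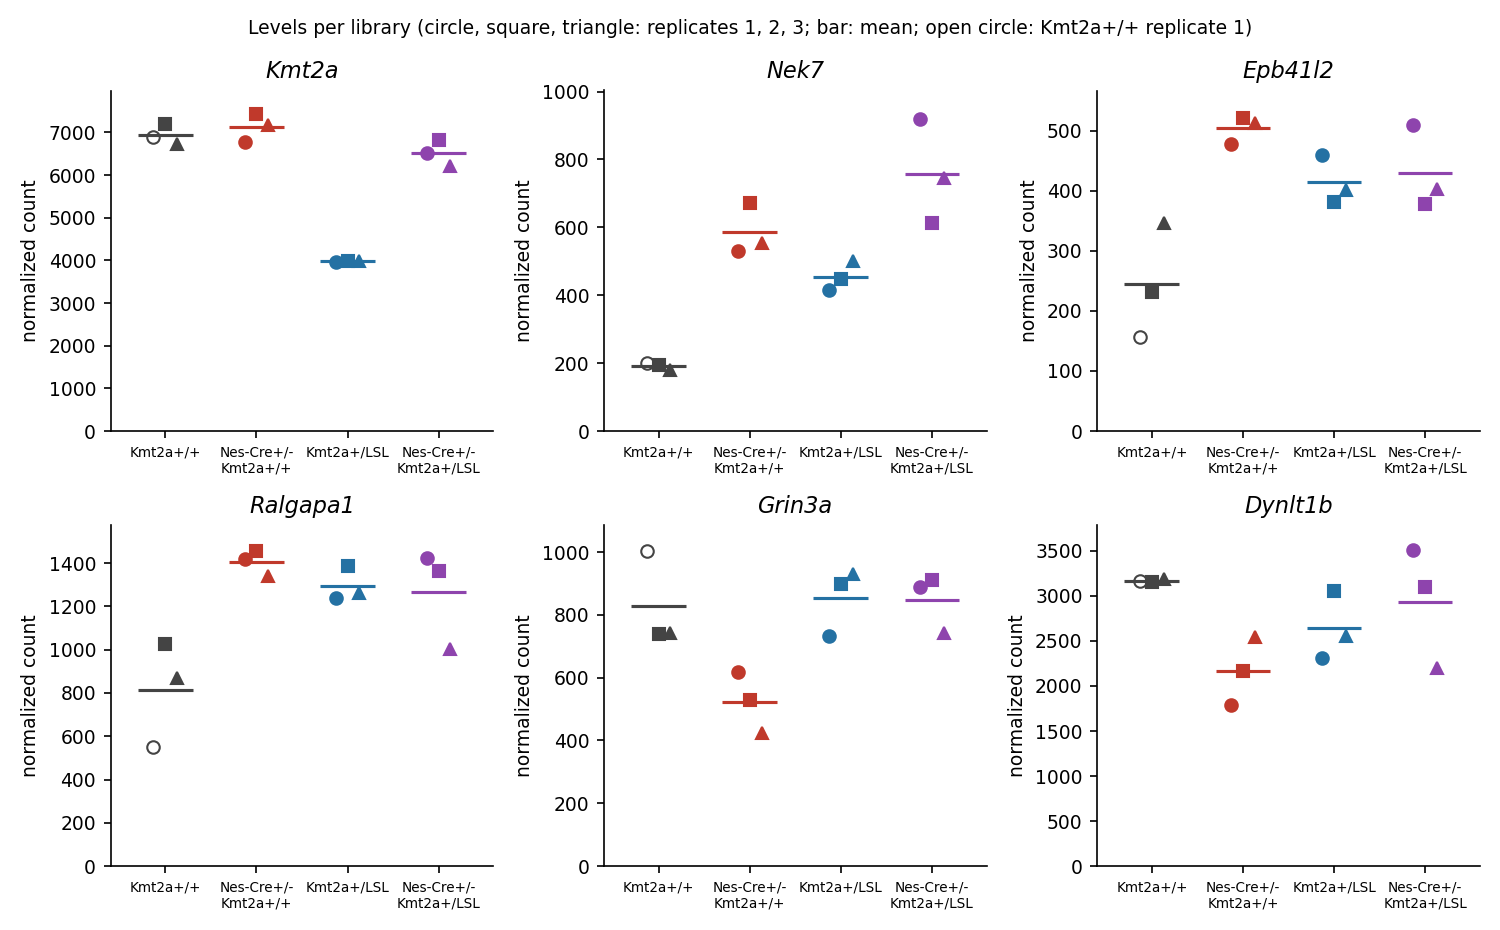
Normalized counts (y axes, linear, from 0) of Kmt2a and of 5 genes that lead the comparison, by genotype (x axes), with 1 symbol per library, a bar at each genotype's mean, and an open circle for Kmt2a+/+ replicate 1. The 3 Kmt2a+/+ libraries of Nek7 (180.1 to 200.5) lie below all 9 other libraries, Kmt2a is low only in Kmt2a+/LSL, and Grin3a is lowest in the 3 Nes-Cre+/- Kmt2a+/+ libraries (423 to 617).

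Besides Nek7, 9 genes led the higher side by the rule for named genes, which asked for a mean of at least 50 normalized counts, no overlap of the libraries and the same direction without Kmt2a+/+ replicate 1. No overlap was seen in 743 of 17076 genes (4.35%), 483 higher (2.83%) and 260 lower (1.52%), and in 334 of the 11697 with a mean of at least 50 normalized counts (2.86%). All 9 had an adjusted p = 1 in edgeR, so they are given as values. Epb41l2, a cytoskeletal protein of the band 4.1 family, had 156, 232 and 346 normalized counts in Kmt2a+/+ and 477, 522 and 512 in Nes-Cre+/- Kmt2a+/+. The spread lay almost wholly in Kmt2a+/+, and the log2 fold change was 1.04 (SE 0.26), or 0.79 without Kmt2a+/+ replicate 1. Its levels in the LSL background, 460, 382 and 402 without Cre and 509, 379 and 403 with Cre, did not separate.

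Ralgapa1, the catalytic subunit of a complex that inactivates Ral GTPases, had 550, 1027 and 871 normalized counts in Kmt2a+/+ and 1417, 1454 and 1343 in Nes-Cre+/- Kmt2a+/+. The Cre-carrying libraries lay within a narrow band above the others, with a log2 fold change of 0.78 (SE 0.22) and 0.56 without Kmt2a+/+ replicate 1. In Kmt2a+/LSL, which has no Cre, Ralgapa1 had 1238, 1386 and 1263. Rcor3, of the CoREST corepressor family, had 92.4, 97.2 and 69.1 in Kmt2a+/+ and 146, 148 and 137 in Nes-Cre+/- Kmt2a+/+, which was 1.67 times the Kmt2a+/+ mean. Tbl1xr1, a subunit of the NCoR and SMRT corepressor complexes, had 436, 1095 and 1014 against 1279, 1575 and 1736, and its Kmt2a+/LSL libraries held 1619, 1654 and 1526. Pagr1a, a partner of the KMT2C and KMT2D methyltransferases, had 89.6, 167 and 144 against 226, 390.4 and 262. Without Cre, Kmt2a+/LSL had 131, 151 and 129 of Rcor3 and 253, 151 and 245 of Pagr1a, above every Kmt2a+/+ library for Rcor3 and for 2 of the 3 libraries of Pagr1a. The log2 fold changes of Rcor3, Tbl1xr1 and Pagr1a were 0.74 (SE 0.23), 0.85 (SE 0.28) and 1.13 (SE 0.35). Without Kmt2a+/+ replicate 1 they were 0.79, 0.53 and 0.91.

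Plekhh1 had the largest fold of the 9 higher genes chosen by the rule, with 46.9, 9.53 and 139 normalized counts in Kmt2a+/+ and 211, 264 and 266 in Nes-Cre+/- Kmt2a+/+. The Kmt2a+/+ libraries were all lower and lay far apart, and the log2 fold change of 1.91 (SE 0.68) ran from 1.39 to 3.17 as single libraries were left out. The Kmt2a+/LSL libraries, which carry no Cre, were as high as those with Cre, at 348, 252 and 179. Ankrd28, a regulatory subunit of protein phosphatase 6, Pigx, which acts in the synthesis of glycosylphosphatidylinositol anchors, and Gm14435 completed the group at 1.85, 1.67 and 2.13 times the Kmt2a+/+ mean. In the LSL background, where the comparison with and without Cre uses no library of the first comparison, the log2 fold changes of the 9 genes ran from -0.44 (Gm14435) to 0.25 (Rcor3), with SEs of 0.22 to 0.65, and none had an unadjusted p under 0.05.

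On the lower side 10 genes led, none past the adjusted threshold. Grin3a, a glycine-binding subunit of NMDA-type glutamate receptors, had 1004, 739 and 741 normalized counts in Kmt2a+/+ and 617, 529.8 and 423 in Nes-Cre+/- Kmt2a+/+. Its mean was 63.2% of that of Kmt2a+/+, with a log2 fold change of -0.66 (SE 0.21) and -0.50 without Kmt2a+/+ replicate 1. All 6 libraries of the LSL background, with Cre or without, lay between 734 and 929.5 and thus above every Nes-Cre+/- Kmt2a+/+ library. The difference between the nestin-Cre effects of the 2 backgrounds in Grin3a was -0.66 (SE 0.29, adjusted p = 1 in edgeR).

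Dynlt1b, a light chain of the dynein motor, had 3162, 3158 and 3187 normalized counts in Kmt2a+/+ and 1787, 2164 and 2548 in Nes-Cre+/- Kmt2a+/+. Here the Kmt2a+/+ libraries, replicate 1 included, were almost equal, and the spread lay in the Cre-carrying cells. The log2 fold change was -0.55 (SE 0.20), and -0.56 without Kmt2a+/+ replicate 1. Dynlt1b belongs to a family of near-identical neighbouring copies, and how kallisto divided reads among them is uncertain. Plrg1, a splicing factor, and Dcaf12l1, an X-linked WD-repeat gene, were at 75.2% and 62.1% of the Kmt2a+/+ mean. Their log2 fold changes were -0.41 (SE 0.16) and -0.69 (SE 0.25), and -0.25 and -0.48 without Kmt2a+/+ replicate 1.

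The other lower genes rested on sparse or uneven counts. Slc38a7, an amino acid transporter, had 244, 274 and 150.5 normalized counts in Kmt2a+/+ and 4.87, 89.2 and 21.9 in Nes-Cre+/- Kmt2a+/+. The Kmt2a+/LSL libraries were as low, at 15.3, 21.4 and 88.8. Rps27rt, a retrotransposed copy of a ribosomal protein gene, had 640, 268 and 391.5 against 143, 197 and 169, and Gm4202 had 665, 89.6 and 239 against 24.3, 12.3 and 0. Both, like the pseudogene Rab11b-ps2, can share reads with near-identical copies, and their division is uncertain. Rab11b-ps2 and Naa60, an N-terminal acetyltransferase, were set by Kmt2a+/+ replicate 1, with 533 and 1036 normalized counts there against 10.5 and 277 in replicate 2 and 9.87 and 251 in replicate 3. Without that library their log2 fold changes moved from -5.62 to -1.47 and from -1.17 to -0.20. BC003965 moved from -0.69 to -0.35.

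Outside edgeR, the 3 genes called by DESeq2's Wald test were Nek7, Brca2 and Fbrs, the latter pair named after their values were seen. Brca2, which repairs DNA breaks by homologous recombination, was listed at 0 in all 3 Kmt2a+/+ libraries and at 23, 100 and 90 counts in Nes-Cre+/- Kmt2a+/+, at least 21.95-fold higher if each Kmt2a+/+ library is set to the floor of 3 counts. In Kmt2a+/LSL it had 168, 0 and 0 counts, and in Nes-Cre+/- Kmt2a+/LSL 85, 204 and 143. Counts were therefore present in all 6 libraries with Cre and in 1 of the 6 without it, with a log2 difference of 5.34 (SE 1.65) and an adjusted p = 1 in edgeR. Fbrs was listed at 0 in Kmt2a+/+ and at 46, 25 and 29 counts in Nes-Cre+/- Kmt2a+/+, at least 10.2-fold higher by the same floor, and had 134, 175 and 0 in Kmt2a+/LSL and 254, 0 and 0 in Nes-Cre+/- Kmt2a+/LSL. Over all genes, 3 were at 0 in every Kmt2a+/+ library and at 10 or more counts in every Nes-Cre+/- Kmt2a+/+ library (Brca2, Dok4 and Fbrs), and 2 the other way (Gm10705 and Gm20547). Between the other pairs of genotypes this number was 0 to 3. A value of 0 among estimated counts can be a failed estimate, and edgeR's adjusted p was 1 for both Brca2 and Fbrs.

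Without Kmt2a+/+ replicate 1, DESeq2's Wald test added 2 genes, likewise named after their values were seen. Adgrl2, a latrophilin adhesion receptor, had 220.4, 24.8 and 11.5 normalized counts in Kmt2a+/+ and 279, 359 and 292 in Nes-Cre+/- Kmt2a+/+. Replicate 1 alone came near the Cre-carrying libraries, Kmt2a+/LSL without Cre had 329.6, 437 and 96.0, and edgeR gave 1.88 (SE 0.95) on the log2 scale with it and 4.10 (SE 0.82, adjusted p = 0.733) without it. Hist2h2aa2, a histone H2A gene, had 0, 375 and 371 against 154, 196 and 169, with -0.53 (SE 0.97) with replicate 1 and -1.11 (SE 0.21, adjusted p = 0.733) without it. The histone H2A genes share sequence, and the division of reads among them is uncertain.

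The cell type lists were first checked against the labelled cell type. The summed normalized count of 17 neural stem cell markers was 441100, 314500 and 271600 in Kmt2a+/+ and 270500, 276000 and 284200 in Nes-Cre+/- Kmt2a+/+. Kmt2a+/+ replicate 1 was high and the rest overlapped. Fabp7 alone had 214100 in that library, against 101800 and 68140 in Kmt2a+/+ replicates 2 and 3. Of the markers 8 were higher and 9 lower, with a median log2 fold change of 0.00 (-0.05 without replicate 1). The 9 tested markers of microglia and macrophages summed to 66.6 to 117 in Kmt2a+/+ and 61.9 to 82.0 in Nes-Cre+/- Kmt2a+/+, the 10 of endothelial and mural cells to 263 to 522 and 246 to 478, the 10 of meningeal fibroblasts to 714 to 1006 and 661 to 1360, and the 8 of choroid plexus and ependyma to 119 to 848 and 497 to 591. Each of these ranges overlapped between the genotypes. Siglec1, a macrophage receptor, was counted 3, 4 and 3 times in the Kmt2a+/+ libraries and 0 times in every Nes-Cre+/- Kmt2a+/+ library, and no fold is given since both lie near the floor. P2ry12, a purine receptor of microglia, was counted 21, 4 and 0 times and 0, 0 and 2 times. These were the 2 of 9 microglial markers at an unadjusted p under 0.05, both lower, beside 0.714% of all genes, and Siglec1 was the 1 left without Kmt2a+/+ replicate 1. Spi1, a transcription factor of myeloid cells, went the other way at counts as low, with 0, 0 and 1 against 1, 8 and 1. In bulk RNA, fewer cells of a type and less RNA per cell cannot be told apart.

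Markers of the astrocyte and oligodendrocyte lineages differed more between the Kmt2a+/+ libraries than between the genotypes. The 13 astrocyte markers summed to 71620, 311200 and 147100 in Kmt2a+/+ and 120000, 188000 and 191000 in Nes-Cre+/- Kmt2a+/+. The 12 oligodendrocyte lineage markers summed to 31090, 107600 and 141600 against 126000, 106800 and 105300. Most of that sum was Olig1 and Olig2 (Kmt2a+/+ means 63310 and 18110), so it says little about the other members. In both lists the lowest sum was that of Kmt2a+/+ replicate 1. The Cre-carrying libraries all lay inside the Kmt2a+/+ range only when that library was included. Without it, the astrocyte sum of 120000 fell below the Kmt2a+/+ range, while 188000 and 191000 stayed inside. The oligodendrocyte lineage sums of 106800 and 105300 also fell below that range, while 126000 stayed inside. Olig2, the lineage factor of oligodendrocyte precursors, had 9441, 18130 and 26750 against 25060, 20520 and 20260, and Gfap, the filament protein of astrocytes, 1619, 7872 and 1520 against 1128, 7506 and 6433. The median log2 fold change moved from -0.02 to -0.30 for astrocyte markers and from 0.15 to -0.19 for oligodendrocyte markers without replicate 1 (11 of 13 and 10 of 12 then lower), none of them past an unadjusted p under 0.05. The 17 tested neuronal markers had medians of 0.02 and 0.03. Without replicate 1, Syt1 was higher (0.87) and Tubb3 lower (-0.54) at an unadjusted p under 0.05, beside 3.87% and 2.23% of all genes. Both are named after their values were seen.

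Proliferation genes turned their direction with the same library. Of 24 mitosis genes, 18 were lower in Nes-Cre+/- Kmt2a+/+ with all libraries (median log2 fold change -0.39), and 23 were higher without Kmt2a+/+ replicate 1 (median 0.38). None reached an unadjusted p under 0.05 in either fit, where 1.40% and 6.09% of all genes did. Mki67, the antigen of cycling cells, had 34150, 4929 and 11610 normalized counts in Kmt2a+/+ and 13310, 10650 and 8193 in Nes-Cre+/- Kmt2a+/+. Kmt2a+/+ thus held both the highest and the lowest library, and Cenpf, a kinetochore protein, and Hmmr, which binds spindle microtubules, were spread the same way, with 12670, 1825 and 3886 against 4746, 4023 and 2993 for Cenpf and 5180, 566 and 1350 against 1677, 1444 and 1160 for Hmmr. The 22 S-phase genes moved from a median of -0.29 (19 lower) to 0.11 (13 higher) without replicate 1. Mcm4, a subunit of the replicative helicase, had 4592, 1099 and 2092 against 2412, 1483 and 1232.

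**Figure D2:**
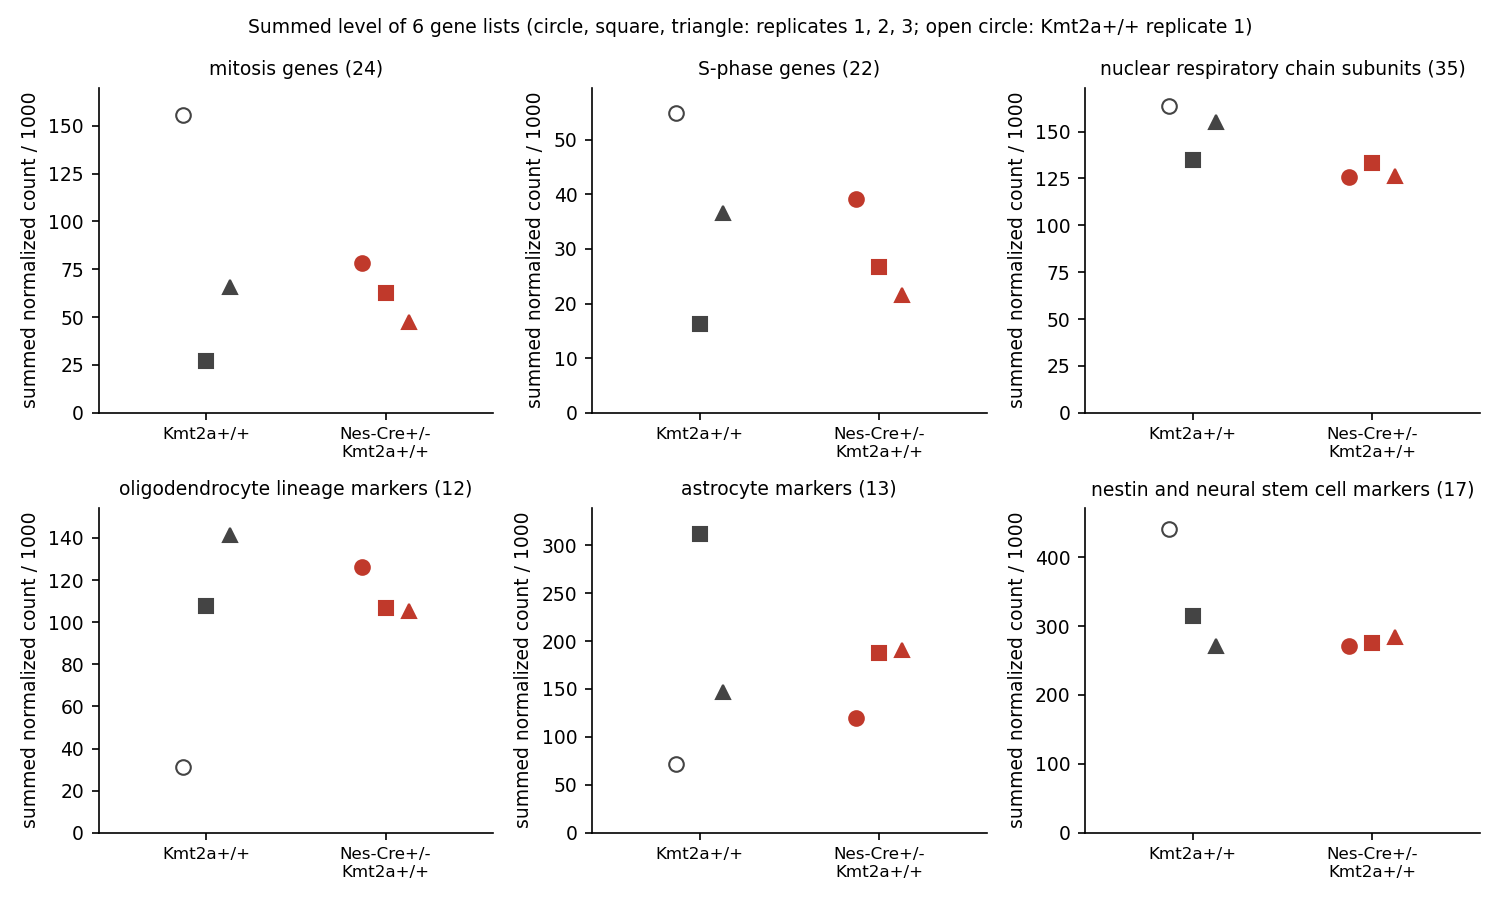
Summed normalized counts of 6 gene lists (y axes, linear, from 0; number of tested members in parentheses) in the 3 libraries of each genotype (x axes), with 1 symbol per replicate and an open circle for Kmt2a+/+ replicate 1. The Kmt2a+/+ libraries span 27160 to 155500 for mitosis genes and enclose the Nes-Cre+/- Kmt2a+/+ libraries (47210 to 78360), whereas the respiratory chain sums do not overlap.

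The nuclear-encoded respiratory chain was the list whose summed level did not overlap between the genotypes while its direction did not depend on Kmt2a+/+ replicate 1. Its 35 subunits summed to 163400, 135100 and 155200 normalized counts in Kmt2a+/+ and 126000, 133500 and 126200 in Nes-Cre+/- Kmt2a+/+. The nearest pair of libraries, 135100 and 133500, differed little. With all libraries 27 of 35 subunits were lower (median log2 fold change -0.20, against 0.01 for all tested genes), and without replicate 1 likewise 27 of 35, though not wholly the same genes (median -0.14, against 0.00). None passed the adjusted threshold in edgeR. An unadjusted p under 0.05 was reached by 0 with all libraries and by 2 without replicate 1, both lower (Ndufv1 and Uqcrc1, which had log2 fold changes of 0.04 and 0.04 with all libraries), beside 2.23% of all genes. In 5 of the 35 the libraries did not overlap and Nes-Cre+/- Kmt2a+/+ was lower, beside 1.52% of all genes.

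These 5 subunits were Uqcrh of complex III, Cox4i1 of complex IV, Sdha of complex II, Ndufa1 of complex I and Atp5l of the ATP synthase. Uqcrh had 6019, 4494 and 4411 normalized counts in Kmt2a+/+ and 3670, 3917 and 4018 in Nes-Cre+/- Kmt2a+/+ (log2 fold change -0.36, SE 0.17). Cox4i1 had 11730, 10790 and 12710 against 9074, 10020 and 9837 (-0.28, SE 0.15). Sdha, the flavoprotein of succinate dehydrogenase, had 11080, 9440 and 10940 against 8539, 9286 and 8675 (-0.25, SE 0.14). Without Kmt2a+/+ replicate 1 the log2 fold changes of Uqcrh, Cox4i1 and Sdha were -0.21, -0.29 and -0.21. In the Kmt2a+/LSL libraries, which carry no Cre, Cox4i1 had 8546, 9361 and 10520 and overlapped Nes-Cre+/- Kmt2a+/+, and the means of Uqcrh and Ndufa1 were 3914 and 576. The nestin-Cre difference in the LSL background ran the other way for 4 of the 5, with log2 values of 0.26 (SE 0.17) for Uqcrh, 0.19 (SE 0.15) for Cox4i1, 0.67 (SE 0.29) for Ndufa1 and 0.44 (SE 0.25) for Atp5l, and was -0.10 (SE 0.14) for Sdha. Uqcrb, another subunit of complex III, shows how far replicate 1 weighs in this list, with 5658 there against 982 and 977 in the other Kmt2a+/+ libraries and 1041 to 1134 in Nes-Cre+/- Kmt2a+/+. Genes whose longest transcript has at most 500 bases, Ndufa1 among them, had a median log2 fold change of -0.09 over 421 genes and -0.12 without replicate 1, and 0.50 for nestin-Cre in the LSL background. An offset for transcript length moved the median of the list to -0.44 and that of all genes to -0.10. The part of transcript length in this result was not tested.

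None of the other lists had a member past the adjusted threshold in edgeR, with or without Kmt2a+/+ replicate 1. In the growth hormone and IGF axis, 19 of 22 tested genes were higher with all libraries (median 0.14) and 10 without replicate 1 (median -0.01), and 0 and 3 of the 22 had an unadjusted p under 0.05, beside 1.40% and 6.09% of all genes. The 3 were Igf1, Jak2 and Prlr, all higher without that library, of which Igf1, a growth factor made under growth hormone control, had means of 5.72 and 10.5 normalized counts and Prlr, the prolactin receptor, 14.1 in both genotypes. Jak2, the kinase that the growth hormone receptor activates, had a log2 fold change of 0.06 (SE 0.42) with all libraries and 0.86 without replicate 1. Grb10, an imprinted adaptor that dampens insulin and IGF signalling, had 5043, 4348 and 3995 normalized counts in Kmt2a+/+ and 4493, 4785 and 5374 in Nes-Cre+/- Kmt2a+/+. These ranges overlapped, with a log2 fold change of 0.13 (SE 0.16).

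Of 28 genes of the p53 and DNA damage response, 16 were higher (median 0.01) and 1 reached an unadjusted p under 0.05, on the higher side, as did 0.685% of all genes. This was Pmaip1, which encodes the pro-apoptotic protein NOXA, with 98.1, 184 and 182 normalized counts in Kmt2a+/+ and 226, 269 and 285 in Nes-Cre+/- Kmt2a+/+ (log2 fold change 0.74, SE 0.29, and 0.50 without replicate 1). Its Kmt2a+/LSL libraries, with no Cre, had 389.8, 285 and 299.5. Without replicate 1, 3 genes of the list were at an unadjusted p under 0.05 and higher, Trp53inp1, Eda2r and Polk, beside 3.87% of all genes. Among 26 tested interferon-stimulated genes 17 were higher (median 0.18, and 0.16 without replicate 1), with none at an unadjusted p under 0.05. Ifih1, a sensor of double-stranded RNA, had 73.9, 67.7 and 58.4 against 74.0, 109 and 109.5, whose ranges touch without overlapping, and Ifit3 had 31.3, 11.4 and 16.5 against 6.82, 11.3 and 8.57, which was lower.

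The 17 enzymes and partners of histone H3 lysine 4 methylation had log2 fold changes between -0.41 and 0.28 with all libraries, a median of 0.04 with 11 higher, and no member whose libraries did not overlap. Without Kmt2a+/+ replicate 1 the median was -0.04 with 10 lower, and Psip1, a chromatin reader that binds the KMT2A complex, moved from -0.41 to 0.35, the 1 of 17 members then at an unadjusted p under 0.05, beside 6.09% of all genes. Their summed level was 52620 to 54190 normalized counts in Kmt2a+/+ and 51820 to 54250 in Nes-Cre+/- Kmt2a+/+. Cytosolic ribosomal proteins (25 of 39 lower, median -0.11), cholesterol synthesis (14 of 22 lower, -0.11), the unfolded protein and amino acid stress response (12 of 19 lower, -0.10), imprinted genes (13 of 21 lower, -0.06), glycolysis and hypoxia (12 of 22 higher, 0.00), immediate early genes (9 higher and 9 lower of 19, 0.00) and forebrain patterning factors (15 of 20 higher, 0.16) had 1 member in all at an unadjusted p under 0.05, Fosl1, which was lower, beside 1.40% of all genes. Leaving out Kmt2a+/+ replicate 1 turned imprinted genes to 13 of 21 higher (median 0.05, with Zdbf2 and Impact higher at an unadjusted p under 0.05, beside 3.87% of all genes), glycolysis and hypoxia to 15 of 22 lower (-0.11) and forebrain patterning factors to 11 of 20 lower (-0.04). In the stress response list Phgdh, an enzyme of serine synthesis, was then the 1 member at an unadjusted p under 0.05, lower, beside 2.23% of all genes. Fosl1, a subunit of the AP-1 factor, had 12.8, 3.81 and 5.76 normalized counts against 0, 1.02 and 0, which is near the floor of 3 counts. Nnt, a mitochondrial transhydrogenase known to be disrupted in C57BL/6J mice, had 228, 369.7 and 479 in Kmt2a+/+ and 397, 478 and 774 in Nes-Cre+/- Kmt2a+/+, which overlapped.

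**Figure D3:**
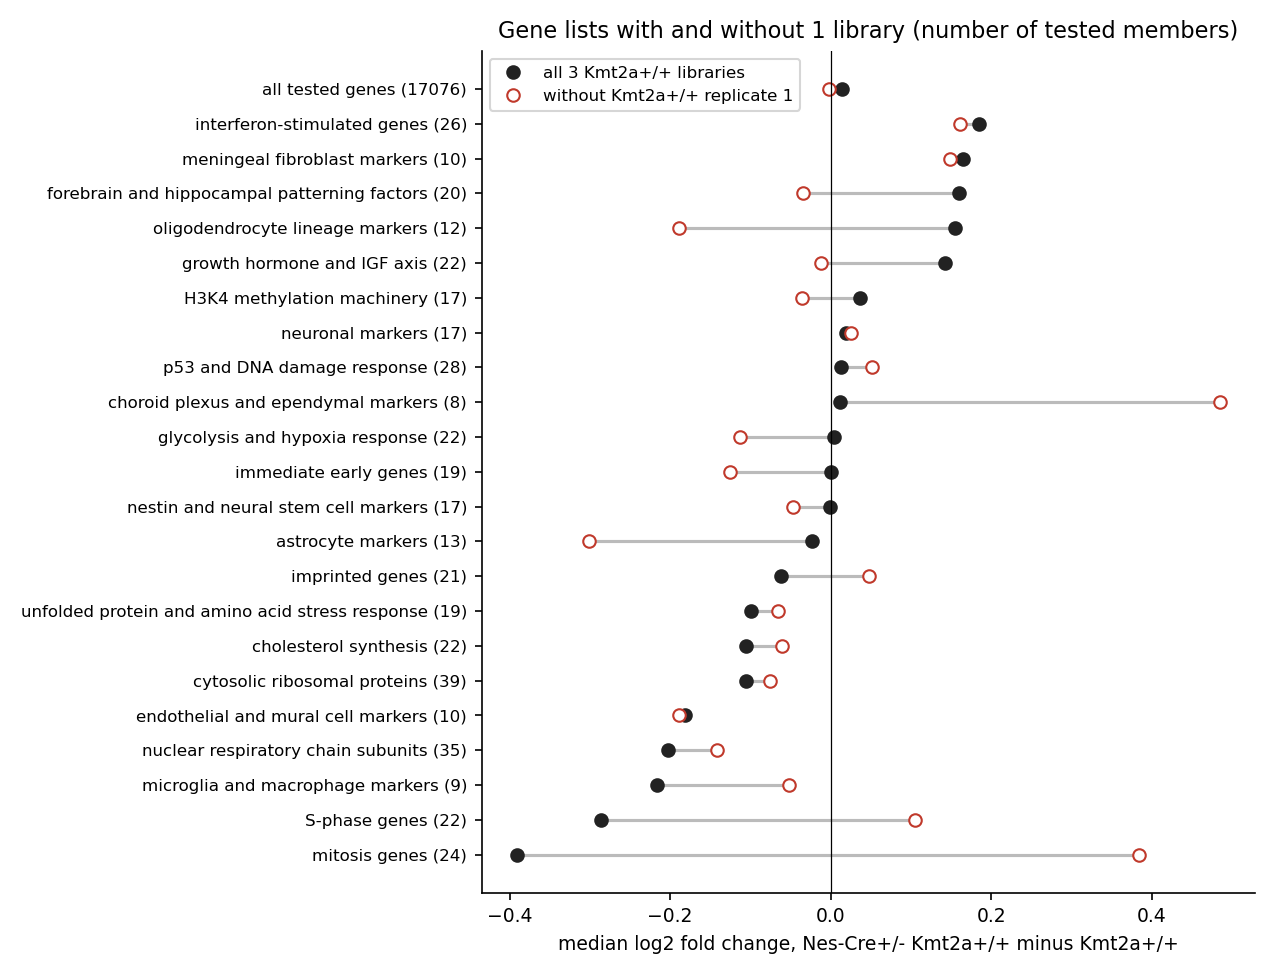
Median log2 fold change of each gene list (x axis) with all libraries (filled) and without Kmt2a+/+ replicate 1 (open), with the number of tested members beside each name on the y axis. The mitosis genes move from -0.39 to 0.38 and the respiratory chain only from -0.20 to -0.14, while the median of all tested genes stays at 0.01 and 0.00.

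The fold changes ran with the GC content of the transcripts. With all libraries, the median log2 fold change went from -0.16 in 1112 genes of at most 40% GC to 0.20 in 751 genes over 60% GC. The order turned without Kmt2a+/+ replicate 1, from 0.41 in the genes of at most 40% GC to -0.24 in those over 60% GC. In that fit 20.1% of the genes of lowest GC had an unadjusted p under 0.05, against 3.87% of those of highest GC and 6.09% of all genes. In that fit an offset for GC content lowered the 1035 genes at an unadjusted p under 0.05 to 636, and the share in the lowest GC class to 7.46%, whereas with all libraries the same offset moved 239 genes to 502. In the LSL background the same medians ran from 0.08 to -0.03, so the gradient was weak there. With the GC offset, Nek7 had a log2 difference of 1.59 (SE 0.25) and an adjusted p = 0.874 in edgeR with all libraries, and 1.32 (SE 0.18) and an adjusted p = 0.281 without Kmt2a+/+ replicate 1. The part of GC content in the gene-level differences was not tested beyond this offset.

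**Figure D4:**
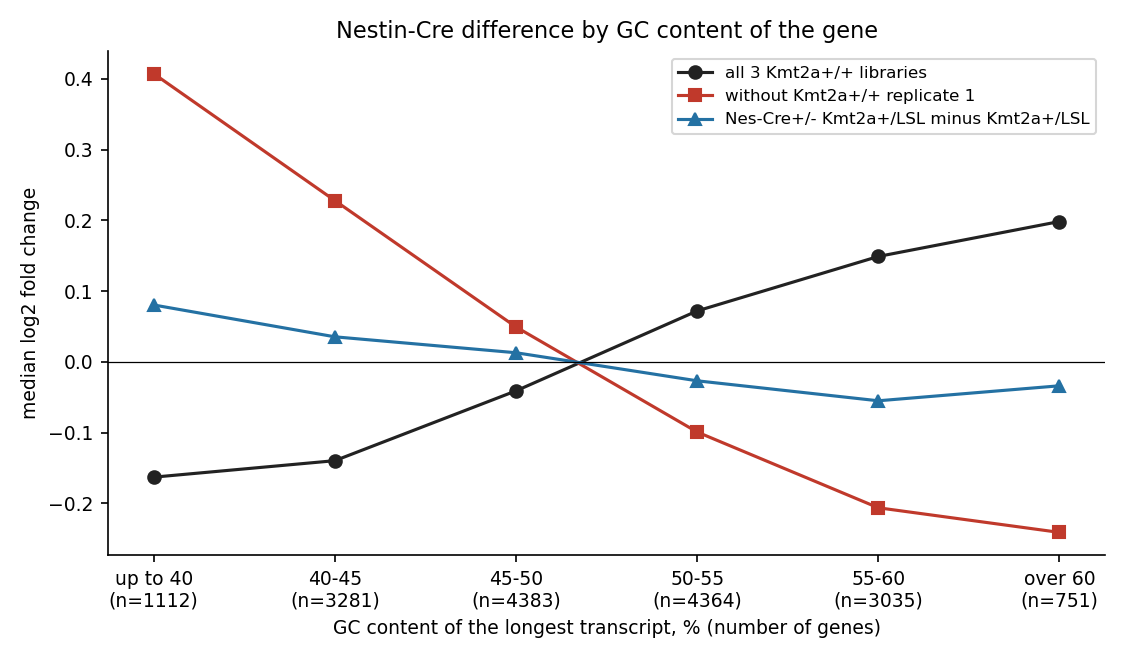
Median log2 fold change (y axis) of genes grouped by the GC content of their longest annotated transcript (x axis, %, with the number of genes), for the comparison with all libraries (circles), without Kmt2a+/+ replicate 1 (squares) and for nestin-Cre in the LSL background (triangles). The first line climbs from -0.16 to 0.20, the second descends from 0.41 to -0.24 and the third stays between 0.08 and -0.06.

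By chromosome, the share of tested genes at an unadjusted p under 0.05 lay between 0.639% (chromosome 15) and 2.66% (chromosome 14, 16 of 601 genes) over the autosomes and X. Chromosome 1, which holds Nek7, had 20 of 994 genes (2.01%), beside 1.40% of all genes. Without Kmt2a+/+ replicate 1 chromosome 14 had 6.70%, close to the 6.09% of all genes, and X had 60 of 715 genes (8.44%), 54 of them higher, where 3.87% of all genes were on the higher side. Kdm6a, an X-linked histone demethylase that escapes X inactivation, is named after its values were seen and had 961, 664 and 740 normalized counts in Kmt2a+/+ and 1143, 1293 and 951 in Nes-Cre+/- Kmt2a+/+. The 2 Nes-Cre+/- Kmt2a+/+ libraries without Y-linked transcripts were the highest of these 6, while Kmt2a+/+ replicate 3, where they summed to 0.909 CPM, lay at 740 and thus below Kmt2a+/+ replicate 1 and Nes-Cre+/- Kmt2a+/+ replicate 3, which held them. With the presence of Y-linked transcripts as a covariate, the log2 fold change of Kdm6a was 0.45 (SE 0.21) against 0.52 (SE 0.20), and that of Nek7 was 1.62 (SE 0.21, adjusted p = 0.288 in edgeR).

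The second background gave values from libraries that the first comparison does not contain. Cre also restores Kmt2a there (log2 fold change 0.71), so its signs are not those of the transgene alone. Of the 239 genes at an unadjusted p under 0.05 between Nes-Cre+/- Kmt2a+/+ and Kmt2a+/+, 118 (49.4%, 95% Wilson interval 43.1% to 55.7%, counting error only) had the same sign for nestin-Cre in the LSL background, where all tested genes gave 44.1%. After Kmt2a+/+ replicate 1 was left out, this was 692 of 1035 genes (66.9%), beside 57.1% of all tested genes. Genes are not independent of each other, and the GC gradients of the 2 comparisons run the same way without that library and opposite ways with it. In that second background 0 of 17076 genes were called in edgeR and 275 (1.61%) had an unadjusted p under 0.05. DESeq2's Wald test called 7, its empirical null 945 and limma-voom 2. EdgeR did call Grb10 there with a GC offset (adjusted p = 0.0123) and without Kmt2a+/+ replicate 1 (adjusted p = 0.0076). In the latter fit 661 genes had an unadjusted p under 0.05.

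Over all 12 libraries, the 6 with Cre were set against the 6 without it, a contrast that also holds the return of Kmt2a in the LSL background. In edgeR 0 genes were called, with 283 at an unadjusted p under 0.05 (1.66%), 181 higher and 102 lower in Cre-carrying cells. DESeq2's Wald test called 7, its empirical null 117 and limma-voom 2. Nek7 had the smallest p, with a log2 difference of 1.18 (SE 0.14, adjusted p = 0.0525), and Kmt2a and Grb10 had 0.37 (SE 0.09) and 0.74 (SE 0.12). Without Kmt2a+/+ replicate 1, edgeR called 2 genes, Nek7 and Grb10, and 1063 genes had an unadjusted p under 0.05. For Kmt2a and Grb10 the nestin-Cre difference was 0.71 and 1.34 in the LSL background, against 0.04 and 0.13 between Nes-Cre+/- Kmt2a+/+ and Kmt2a+/+.

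The difference between the nestin-Cre effects of the 2 backgrounds also holds the return of Kmt2a in the LSL background. It was called for 0 genes in edgeR, with 295 (1.73%) at an unadjusted p under 0.05. Of these, 106 had the larger value in the Kmt2a+/+ background. DESeq2's Wald test called 10, its empirical null 17 and limma-voom 0. The smallest p was that of Grb10, with -1.21 (SE 0.23, adjusted p = 1), and Kmt2a had -0.67 (SE 0.18). The count of 295 moved to 562, 536 and 687 as Kmt2a+/+ replicates 1, 2 and 3 were left out in turn.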

How the data were processed

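The authors pseudoaligned the reads with kallisto 0.48.0 to transcripts of the mouse mm10 build and summed them to genes with tximport, and they deposited 1 table of estimated counts with a column per library. The study names DESeq2 1.42.0 for its own tests, and its authors left the Nes-Cre+/- Kmt2a+/+ libraries out of them. The estimated counts were analysed as whole numbers, although raw counts had been planned for. Genes with more than 10 counts in all and counts in at least 2 libraries were tested in edgeR 4.0.16 (TMM scaling, quasi-likelihood test, Benjamini-Hochberg adjustment, R 4.3.3) in a fit of 12 libraries with 1 mean per genotype. The same fit was repeated without Kmt2a+/+ replicate 1. DESeq2 1.42.0 (Wald test, and the same rescaled to an empirical null), limma 3.58.1 (voom with quality weights), offsets for GC content and length, and other filters were alternatives, and the code was tested on simulated data. Gene coordinates, lengths and GC content are those of the GENCODE annotation of GRCm38. Of 18911 genes, 176 had no symbol. Genes were named by a rule: those fixed by name, those called, the 10 each way with the smallest p among genes with a mean of at least 50 normalized counts, no overlap and the same direction without Kmt2a+/+ replicate 1, and the 3 members of each list with the smallest p. The members and lists were chosen with earlier results of these data known. Gene levels are compared within a gene, not between genes, and normalized counts are not corrected for length.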

Additional observations from a re-analysis of the deposited data

How the results depend on the processing

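In edgeR, 0 genes were called between Nes-Cre+/- Kmt2a+/+ and Kmt2a+/+ as each library was left out in turn (0 to 0), and 1 gene, Nek7, at an adjusted p under 0.1. DESeq2's Wald test gave 3 calls and its empirical null 7. The 239 genes at an unadjusted p under 0.05 became 500 under the empirical null, 502 with a GC offset, 95 with at least 10 counts in every library, 1088 with limma-voom, 124 with only the 2 genotypes, and 142 to 1035 as single libraries were left out. When Kmt2a+/+ replicate 1 was left out, DESeq2's Wald test gave 5 calls and its empirical null 7, while at least 10 counts in every library, no filter, the robust fit and an adjusted p under 0.1 each gave 1, Nek7, and the 1035 genes at an unadjusted p under 0.05 became 636 with a GC offset and 1698 with only the 2 genotypes. For Cre-carrying against Cre-free libraries the calls were 7, 117, 1, 2 and 1 under the Wald test, the empirical null, at least 10 counts in every library, limma-voom and an adjusted p under 0.1, and 0 to 2 as single libraries were left out, and the 283 genes became 1481 under the empirical null, 104 with at least 10 counts in every library, 798 with limma-voom and 207 to 1063 as single libraries were left out. For the difference between backgrounds the Wald test gave 10 calls and the empirical null 17, with 0 to 0 as single libraries were left out, and the 295 genes became 553 under the empirical null, 489 with a GC offset, 131 with at least 10 counts in every library, 928 with limma-voom and 205 to 687 as single libraries were left out. The same-sign share of 49.4% was 45.8% for the top decile, 44.2% at a mean of at least 50 and 45% with the replicate block, beside 44.1% of all tested genes. Without Kmt2a+/+ replicate 1 it was 66.9%, and 64.1% for the top decile, beside 57.1% of all tested genes. Without that library the median of the GC class of at most 40% moved from -0.16 to 0.41, and the share on chromosome 14 from 2.66% to 6.70%. The cause of these changes was not tested.

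No pairing by replicate number was seen. The deviations of same-numbered libraries correlated at 0.07, 0.02 and -0.05, within the range of differently numbered ones (-0.179 to 0.172). Whether same-numbered libraries share a litter or culture was not tested. With the replicate number as a block, 220 genes had an unadjusted p under 0.05 with all libraries (266 with a length offset as well, 86 with only the 2 genotypes) and 846 without Kmt2a+/+ replicate 1, 252 for Cre-carrying against Cre-free libraries and 278 for the difference between backgrounds, and edgeR called 0 in each.

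EdgeR called no gene in the main fit of this comparison, and the log2 fold changes of some genes changed sign. As single libraries were left out, the range was -1.08 to 0.45 for Cenpf, -1.20 to 0.57 for Hmmr, -0.97 to 0.095 for Mcm4, -1.10 to 0.37 for Mki67, -1.62 to 0.14 for Uqcrb, -0.34 to 0.39 for Uqcrc1, -0.38 to 0.44 for Ndufv1, -0.037 to 0.67 for Olig2, -0.88 to 0.55 for Polk, -0.41 to 0.47 for Eda2r, -0.29 to 0.86 for Jak2, -0.44 to 1.53 for Prlr, -0.21 to 0.56 for Trp53inp1, -0.68 to 0.35 for Psip1, -1.20 to 0.99 for Zdbf2, -0.32 to 0.43 for Impact and -0.43 to 0.37 for Phgdh. With limma-voom, Uqcrb had 0.098, Mki67 0.56, Cenpf 0.61, Hmmr 0.79, Mcm4 0.099, Nes 0.030, Eda2r 0.46, Polk 0.58, Psip1 0.29, Zdbf2 0.68, Impact 0.40, Ndufv1 -0.26 and Uqcrc1 -0.22. With a GC offset, Kmt2a had -0.069, Olig2 -0.13, Eda2r 0.027, Impact 0.086, Ndufv1 -0.083 and Uqcrc1 -0.0099. In both DESeq2 tests, Kmt2a had -0.00084, Jak2 -0.00337, Prlr -0.00576 and Trp53inp1 -0.039, and with DESeq2 size factors -0.0011, -0.00279, -0.0019 and -0.039. With a length offset, Jak2 had -0.0981, Trp53inp1 -0.12, Ndufv1 -0.00644 and Uqcrc1 -0.039. With the Y-linked covariate, Ndufv1 had -0.035, Uqcrc1 -0.017 and Impact 0.15, which had 0.035 with the replicate block and 0.037 with the block and only the 2 genotypes. Phgdh had 0.13 with the replicate block, 0.0053 with the block and a length offset, and 0.20 with the block and only the 2 genotypes. Trp53inp1 had -0.0039 with at least 10 counts in every library and -0.012 with only the 2 genotypes, and Hist2h2aa2 0.38 with only the 2 genotypes and the block. The covariate for Y-linked transcripts, the fit of the 2 genotypes with the block and the same-sign share over all genes were chosen after seeing the data. Depth was lowest in Kmt2a+/+ replicate 1, where genes of few counts are read least firmly.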
